A study of Mus musculus with 10 samples.

Results

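The nutrient transporter families described here are 11 groups of solute carrier genes: Slc1a, Slc2a, Slc3a, Slc5a, Slc6a, Slc7a, Slc16a, Slc27a, Slc36a, Slc38a and Slc43a. Their members are the open chromatin peaks of a deposited ATAC-seq table whose nearest protein-coding gene body, within 50 kb, carries one of these family names followed by a number. There were 182 such peaks of 36251 in the table, near 67 of the 104 annotated genes of the families. The other 37 genes had no peak assigned, among them Slc5a6, Slc2a4, Slc3a1, Slc7a9, Slc36a2 and Slc43a1. Nearness to a gene was the only link used, so a peak named after a transporter gene need not act on that gene.

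ATAC-seq uses the Tn5 transposase to cut accessible DNA, and a peak is a stretch where such cuts pile up. The libraries came from innate lymphoid cells (ILCs), lymphocytes without rearranged antigen receptors, sorted from the lamina propria of the small intestine of C57BL/6 mice. Every mouse carried the Id2creERT2 allele, which places tamoxifen-inducible Cre under Id2, and the Cre reporter tdRFP, and every mouse received tamoxifen in the diet for several weeks before the sort, the Control mice included. The Control group (n = 3 libraries) had no floxed gene named in the labels. The RORgt-KO group (n = 2) also carried the floxed allele that gives it its label, and the other knockout groups carried that allele as well. The RORgt-Tbet-KO group (n = 2) had Tbx21f/f in addition, and the RORgt-RORa-KO group (n = 3) Roraf/f. A library came from 1 mouse or from pooled intestines of 2 or 3 mice. The sources used here do not give the ages or sex of the mice or the markers of the sort.

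Cells take up sugars, amino acids and monocarboxylates through carriers, since these solutes cross membranes poorly by themselves. Slc27a proteins take part in the uptake of fatty acids. Slc2a proteins move hexoses down their gradient, and Slc5a proteins use the sodium gradient to move sugars, inositol and other solutes. Slc1a, Slc6a, Slc7a, Slc36a, Slc38a and Slc43a proteins carry amino acids or related compounds, and several Slc7a light chains work only when joined to an Slc3a heavy chain. Activated lymphocytes are known to raise glucose and amino acid uptake. T-bet (Tbx21) directs type 1 ILC programs, and RORα (Rora) acts in ILC2 and ILC3 development.

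The member peaks lay mostly away from start sites. Of the 182, 80 were inside a gene body, 59 outside, 20 within 1 kb of a gene end, and 23 overlapped a promoter window, defined as 250 bases before to 50 after a RefSeq start. Of the 67 genes, 51 were matched by symbol in the RefSeq promoter table of build GRCm38.p6. A peak of an unmatched gene could not count as a promoter peak, so 23 is a minimum. Peaks over an end of such genes, as at Slc7a5 and Slc6a6, were counted at gene ends and may cover promoters. Promoter sequences are printed for 4 of the 8 genes whose promoter peak differed from Control in at least 1 knockout group. They include both of the 8 that hold the half-site marked below, so they do not stand for the 8. Each sequence is the 250 bases that precede the start site, 5′ to 3′ on the strand of the gene. Capitals mark the T-box half-site, AGGTGT on the gene's strand or ACACCT where it lies on the other strand. Slc1a4 lies at chr11:20332714-20332963 (minus strand), Slc1a1 at chr19:28834885-28835134 (plus), Slc38a10 at chr11:120151352-120151601 (minus) and Slc2a8 at chr2:32982084-32982333 (minus).
Slc1a4 promoter: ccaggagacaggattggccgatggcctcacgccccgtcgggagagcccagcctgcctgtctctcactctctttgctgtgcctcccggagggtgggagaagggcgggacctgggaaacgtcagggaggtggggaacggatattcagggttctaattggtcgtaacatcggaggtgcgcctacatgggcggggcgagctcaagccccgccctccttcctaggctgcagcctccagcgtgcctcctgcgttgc
Slc1a1 promoter: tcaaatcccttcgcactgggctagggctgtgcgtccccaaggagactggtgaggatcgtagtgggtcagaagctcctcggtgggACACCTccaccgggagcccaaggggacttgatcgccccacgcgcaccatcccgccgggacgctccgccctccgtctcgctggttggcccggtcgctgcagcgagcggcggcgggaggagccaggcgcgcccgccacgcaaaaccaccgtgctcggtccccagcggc
Slc38a10 promoter: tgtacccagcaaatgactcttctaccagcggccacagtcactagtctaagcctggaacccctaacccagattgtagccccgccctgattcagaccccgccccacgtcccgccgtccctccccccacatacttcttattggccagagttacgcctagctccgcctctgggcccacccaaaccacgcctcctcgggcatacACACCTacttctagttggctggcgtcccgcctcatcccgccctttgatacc
Slc2a8 promoter: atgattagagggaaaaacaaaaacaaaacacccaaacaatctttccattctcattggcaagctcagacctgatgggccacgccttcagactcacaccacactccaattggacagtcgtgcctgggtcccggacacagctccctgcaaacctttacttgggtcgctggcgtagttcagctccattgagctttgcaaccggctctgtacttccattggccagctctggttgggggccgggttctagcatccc

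The Slc1a4 sequence sits under a peak that was lower in all 3 knockout groups and holds 64.8% G and C. Slc1a1 (70.4% G and C) and Slc38a10 (60.4%) each hold 1 T-box half-site, 166 and 51 bases before the start. The Slc1a1 peak was lower and the Slc38a10 peak higher in RORgt-RORa-KO, and neither passed the test in RORgt-Tbet-KO. No capital appears in Slc1a4 or Slc2a8, so these letters are not in those windows. Among the 23 member promoter windows, 3 held the T-box half-site, against 11.8% of 32851 windows of the same length. Of the 8 windows whose peak passed the test in at least 1 knockout group, 2 held it. The nuclear receptor half-site (AGGTCA, or TGACCT on the other strand) was in 1 of the 23, and in 0 of the 8, against 14% of all windows. The E-box CACGTG was in 5 of the 23, and in 0 of the 8, against 6.02% of all windows. A letter match is a description and not a bound site.

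Accessibility is given as the deposited log2 value, which is log2 of the reads in a peak times 1 scaling factor per library. A peak held between 0 and 1230 reads in a library, and the median over the members of their median read number was 43.25. The libraries held 2272276 to 5048636 reads in peaks, and Control 1 had 194 empty peaks over the whole table against 9 to 67 in the other libraries. The ILC marker genes Id2, Il7r, Thy1, Gata3, Rora, Kit, Il2rg and Ahr had peaks in these libraries. The labels do not say which exons are floxed, and a peak outside them checks nothing, so the deletions were not checked here. In the pooled cells of a library, a smaller share of cells with an open site and a less open site per cell cannot be told apart. The labels do not tie libraries to separate experiments, so the p-values measure the spread between these libraries.

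In Control the members' mean log2 values ran from 2.09 to 9.91 with a median of 5.81, and the median over all peaks was 5.95. The 10 peaks with the highest summed signal are described, and their level per kb of peak length is given for comparison between genes. A peak inside Slc38a11 reached 9.81 (log2 of scaled reads per kb) and the Slc1a4 promoter 9.20. A peak outside Slc2a3, which encodes the neuronal and leukocyte glucose carrier GLUT3, reached 9.30. Foxj2 is almost as near to that peak, at 8178 bases against 8118. The other 7 were the promoters of Slc7a1 (7.89), Slc36a4 (7.94), Slc2a6 (7.62), Slc38a2 (7.37) and Slc38a9 (7.99), the Slc6a7 peak (8.24) and a peak at an end of Slc6a6 (7.52). Among the 5 peaks with the lowest summed signal, near Slc2a1, Slc38a1, Slc6a17, Slc1a2 and Slc38a2, the level per kb ran from 4.08 to 6.33.

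Against Control, members gained and lost accessibility in each knockout group, and about as often as peaks elsewhere in the genome. In RORgt-KO, 11 member peaks were higher and 9 lower at an adjusted p of 0.05 (limma), which is 11% of the members against 12.3% of all peaks. In RORgt-Tbet-KO, 19 were higher and 20 lower, 21.4% against 22.6% of all peaks. In RORgt-RORa-KO, 27 were higher and 29 lower, 30.8% against 31.2% of all peaks. These 3 shares are near the background, and the median log2 fold change of the members was 0.08, 0.08 and 0.09 in that order, against 0.02, 0.01 and 0.02 over all peaks. At least 1 of the 3 contrasts called 67 peaks near 39 genes, 36.8% against 38.7% of all peaks. The F test over the 4 groups called 57 member peaks, 31.3% against 30.7% of all peaks. The 3 contrasts share the Control libraries. Their precision differed, with a median standard error over all peaks of 0.271 for RORgt-RORa-KO and 0.303 for RORgt-KO and for RORgt-Tbet-KO. The 3 counts therefore do not rank the deletions by effect.

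Libraries that did not overlap between groups were common in the whole table. For 68 members (37.4%) the RORgt-KO libraries did not overlap Control, against 40.1% of all peaks. The same held for 90 (49.5%) in RORgt-Tbet-KO, against 52.6%, and for 70 (38.5%) in RORgt-RORa-KO, against 39.4%.

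Single libraries weighed on these totals. The 20 calls of RORgt-KO became 12 without Control 1, 12 without Control 2, 6 without RORgt-KO 1 and 8 without RORgt-KO 2. The 39 calls of RORgt-Tbet-KO became 15 without RORgt-Tbet-KO 1 and 17 without RORgt-Tbet-KO 2. The 56 calls of RORgt-RORa-KO ran from 47 to 59 with any 1 library left out. Where the fold change of a called member peak against Control is given without naming a library, the call held with any 1 left out. Loss under other alternatives is named for a few peaks only, so a call without such a remark need not have held under them. Without the mean-variance trend of the fit, 52 of the 140 calls of a member peak in a comparison were lost. The split of higher and lower calls in RORgt-KO was not fixed: centring each library on its median gave 12 higher and 6 lower, and a fit of these 2 groups alone gave 5 higher and 13 lower.

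**Figure D1:**
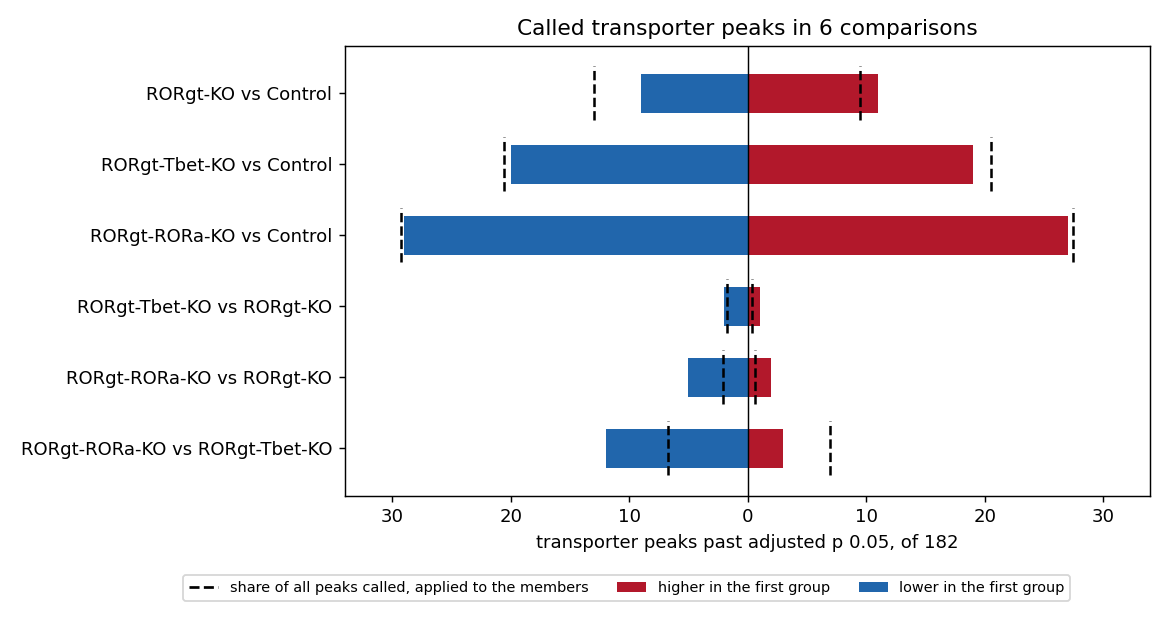
Number of member peaks called higher or lower (adjusted p of 0.05, limma) in each of the 6 comparisons of the 4 groups. Bars count peaks of 182, dashed lines show the number that the share of all peaks called in that direction would give among 182, and the RORgt-RORa-KO against Control bars reach 27 and 29.

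No member peak was called higher in one knockout group and lower in another. The share of all peaks with such opposite calls was not counted, and the 3 contrasts use the same Control libraries. This is therefore not read as a trait of the members. Of the 182 peaks, 7 were higher in all 3 groups, 3.85% against 3.54% of all peaks, near Slc16a7, Slc43a3, Slc5a1, Slc2a1, Slc2a6, Slc16a10 and Slc7a15. A further 8 were lower in all 3, 4.4% against 5.1% of all peaks, near Slc16a9, Slc7a14, Slc16a7, Slc38a6, Slc38a11 and Slc1a4. Another 24 peaks were called only in RORgt-RORa-KO, 10 of them higher and 14 lower, which by itself shows no difference between the knockout groups. Higher and lower peaks occurred together near 4 of the 67 genes: Slc16a7, Slc16a10, Slc38a1 and Slc38a2. How often other peaks were called only in RORgt-RORa-KO, or other genes had both directions, was not counted.

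**Figure D2:**
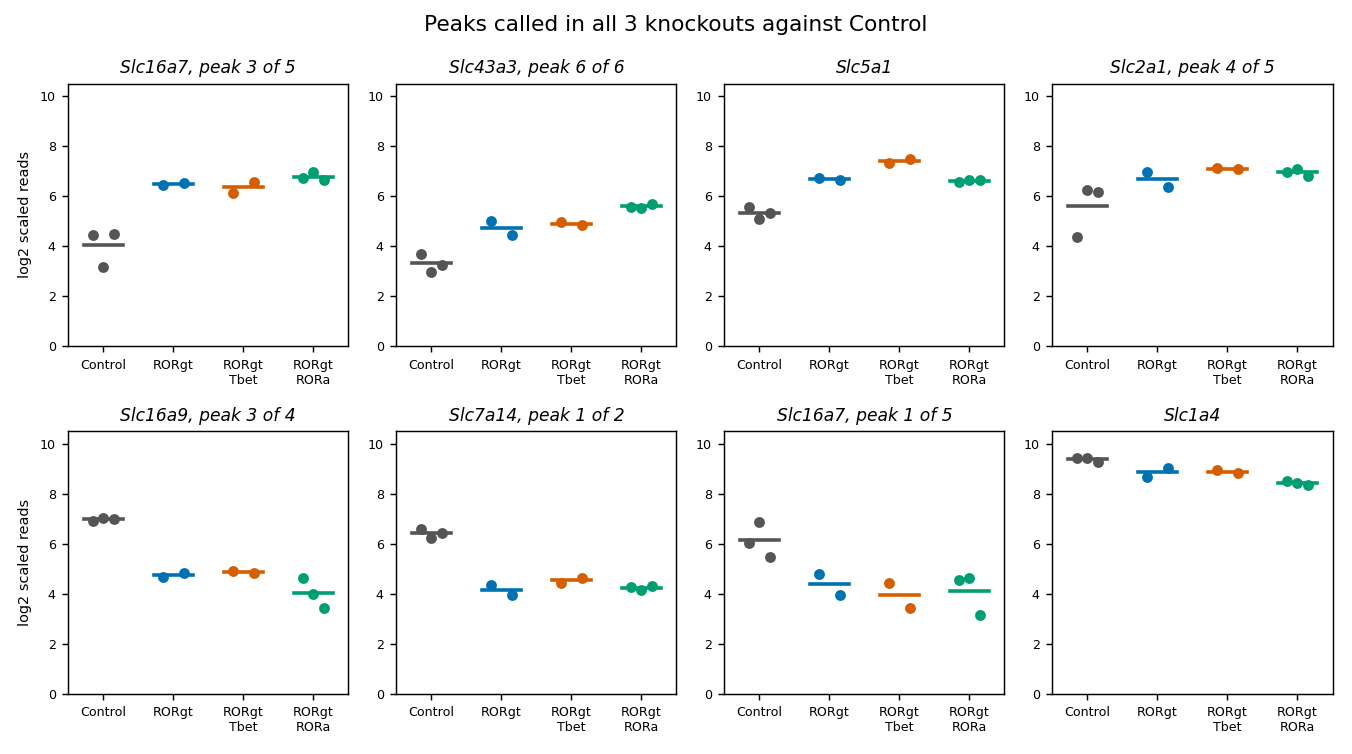
Deposited log2 values (log2 of scaled reads, vertical axis) of 8 peaks that passed the test in all 3 knockout groups, with 1 point per library and a line at each group mean. At the Slc16a7 peak on the rising side the 3 Control points lie between 3.18 and 4.48 and the 7 knockout points between 6.14 and 6.95.

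**Figure D3:**
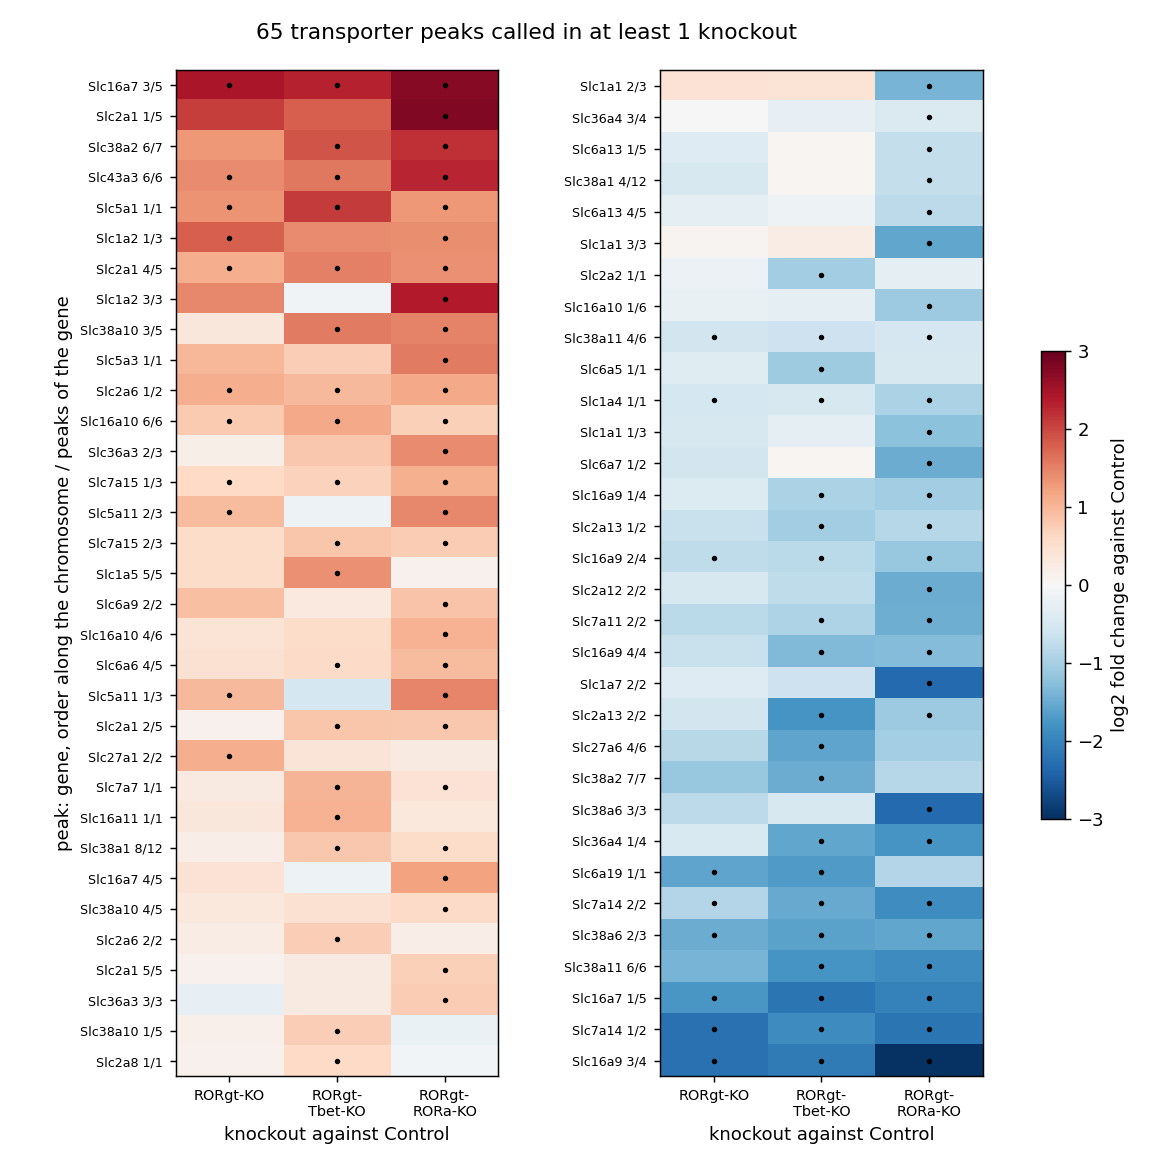
Log2 fold change against Control (colour) of 65 of the 67 called peaks in each knockout group, sorted by their mean change, with a dot where the adjusted p passed 0.05. The blocks of 1 colour across a row show the peaks that moved in 1 direction, such as Slc7a14 at -2.25, -1.88 and -2.18.

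The sugar carriers had 29 peaks near Slc2a genes, Slc5a1, Slc5a9, Slc5a10 and Slc5a11, and the single peak of Slc5a3 was counted apart from them. Of these 29, 5 were higher and 0 lower in RORgt-KO, 6 higher and 3 lower in RORgt-Tbet-KO, and 8 higher and 3 lower in RORgt-RORa-KO. The background shares were 5.19% higher and 7.12% lower, 11.3% and 11.3%, and 15.1% and 16.1% of all peaks in the same order. The higher peaks lay near Slc2a1, Slc2a6, Slc2a8, Slc5a1 and Slc5a11, and the lower ones near Slc2a2, Slc2a12 and Slc2a13. Of these, Slc5a11 and Slc2a13 encode inositol carriers, so the counts are not of sugar carriers alone. Slc5a11 gave 2 of the higher calls in RORgt-KO and 2 in RORgt-RORa-KO. Slc2a13 gave 2 of the lower calls in RORgt-Tbet-KO and 2 in RORgt-RORa-KO.

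Slc5a1 encodes SGLT1, the sodium-glucose carrier known for glucose absorption by enterocytes. Its single called peak lay inside the gene at chr5:33121829-33122323. The log2 values were 5.58, 5.07 and 5.32 (Control), 6.73 and 6.63 (RORgt-KO), 7.33 and 7.50 (RORgt-Tbet-KO) and, for RORgt-RORa-KO, 6.57, 6.63 and 6.65. Every knockout library was above every Control library, and the RORgt-Tbet-KO libraries were the highest. The log2 fold change was 1.35 (SE 0.24, adjusted p = 0.000303, limma), 2.09 (SE 0.24, 5.18e-07) and 1.29 (SE 0.22, 3.27e-05), and each call held with any 1 library left out.

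Slc2a1 encodes GLUT1, the carrier for basal glucose uptake in many cells including activated lymphocytes. It had 5 peaks, of which 4 were higher in at least 1 knockout group. The peak inside the gene at chr4:119125883-119126324 read 4.37, 6.23 and 6.17 (Control), 6.97 and 6.38 (RORgt-KO), 7.13 and 7.07 (RORgt-Tbet-KO) and, for RORgt-RORa-KO, 6.96, 7.08 and 6.81. No knockout library fell within the Control range, and Control 1 was far below the other 2. Its log2 fold change was 1.08 (SE 0.35, adjusted p = 0.039, limma), 1.51 (SE 0.35, 0.00236) and 1.36 (SE 0.31, 0.00125). The first call was lost without Control 1, RORgt-KO 1 or RORgt-KO 2 (adjusted p 0.0705 to 0.401), and the other 2 held with any 1 library left out, although the RORgt-Tbet-KO call was lost without the mean-variance trend (0.0663).

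A weak peak 18752 bases upstream of Slc2a1, at chr4:119089742-119089993, held 0, 4 and 8 reads in the Control libraries and 20 to 25 in the RORgt-RORa-KO libraries. Its log2 fold change in RORgt-RORa-KO was 2.77 (SE 0.65, adjusted p = 0.00165, limma). A peak 2593 bases upstream, at chr4:119105734-119106152, rose by 0.84 (SE 0.22, adjusted p = 0.00637) in RORgt-Tbet-KO and 0.81 (SE 0.20, 0.00203) in RORgt-RORa-KO. The RORgt-Tbet-KO call was lost without either of its libraries (adjusted p 0.0759 and 0.0849). The Slc2a1 promoter peak did not pass in any of the 3 contrasts.

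Slc5a11 encodes SMIT2, a sodium-coupled myo-inositol carrier, and its 3 peaks lay inside the gene. At chr7:123217675-123218780 the values were 5.96, 6.07 and 5.76 (Control), 7.05 and 6.76 (RORgt-KO), 5.56 and 5.27 (RORgt-Tbet-KO) and, for RORgt-RORa-KO, 7.53, 7.40 and 7.26. The RORgt-KO and RORgt-RORa-KO libraries were above Control, and both RORgt-Tbet-KO libraries were below it. The log2 fold change against Control was 0.97 (SE 0.24, adjusted p = 0.00615, limma) in RORgt-KO and 1.47 (SE 0.21, 4.89e-06) in RORgt-RORa-KO, and -0.52 (SE 0.24, 0.119) in RORgt-Tbet-KO did not pass. Without RORgt-KO 1 the first call was lost (adjusted p = 0.139). A neighbouring peak at chr7:123220136-123220448 rose by 1.45 (SE 0.29, adjusted p = 0.0003) in RORgt-RORa-KO.

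Slc2a6 had a peak inside the gene, chr2:27025515-27025868, that was higher in all 3 groups. It read 5.37 to 6.10 in Control and 6.41 to 7.27 over the knockout libraries, with no overlap. The log2 fold change was 1.09 (SE 0.28, adjusted p = 0.00917, limma) in RORgt-KO, lost without RORgt-KO 1 (0.28). It was 0.98 (SE 0.28, adjusted p = 0.0121) in RORgt-Tbet-KO, lost without Control 2 or either RORgt-Tbet-KO library (0.0536 to 0.113), and 1.14 (SE 0.25, 0.000797) in RORgt-RORa-KO. The Slc2a8 promoter peak read 7.43, 7.33 and 7.42 (Control), 7.57 and 7.45 (RORgt-KO), 7.85 and 8.12 (RORgt-Tbet-KO) and, for RORgt-RORa-KO, 7.35, 7.08 and 7.49. The promoters of Slc2a6 and Slc2a8 were higher in RORgt-Tbet-KO, with log2 fold changes of 0.73 (SE 0.23, adjusted p = 0.0231) and 0.59 (SE 0.19, 0.0275). Both calls were lost without Control 2 or either RORgt-Tbet-KO library, the second also without Control 1 (0.0515 to 0.312).

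Slc2a13 encodes HMIT, a proton-coupled myo-inositol carrier, and both of its peaks fell. The peak 42881 bases upstream, chr15:91616142-91616807, read 7.50, 7.63 and 6.94 (Control), 6.71 and 6.92 (RORgt-KO), 5.47 and 5.70 (RORgt-Tbet-KO) and, for RORgt-RORa-KO, 6.13, 6.57 and 6.15. All knockout libraries lay below Control, the RORgt-Tbet-KO ones lowest. In log2 units the change was -1.78 (SE 0.25, adjusted p = 8.81e-06, limma) in RORgt-Tbet-KO and -1.08 (SE 0.22, 0.000444) in RORgt-RORa-KO, and -0.54 (SE 0.25, 0.169) in RORgt-KO did not pass. The Slc2a13 promoter peak fell by 1.05 (SE 0.28, adjusted p = 0.00643) and 0.86 (SE 0.25, 0.00855) in the same 2 groups, the first lost without RORgt-Tbet-KO 1 (0.141). The promoter of Slc2a12, a glucose carrier, changed by -1.48 (SE 0.51, adjusted p = 0.0259) in RORgt-RORa-KO, lost without Control 2, Control 3 or RORgt-RORa-KO 3 (0.074 to 0.118). A peak downstream of Slc2a2 (GLUT2) changed by -1.05 (SE 0.33, adjusted p = 0.0224) in RORgt-Tbet-KO, lost without Control 1 or either RORgt-Tbet-KO library (0.057 to 0.175).

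Slc2a3 had 7 peaks and none passed in any contrast with Control. The one with the smallest p over the 4 groups, chr6:122804558-122804766, changed by -0.75 (SE 0.37, adjusted p = 0.212, limma), -0.11 (SE 0.37, 0.868) and 0.21 (SE 0.33, 0.68). Slc5a3 encodes SMIT1, another sodium-coupled inositol carrier. Its peak, 38562 bases upstream at chr16:92019242-92019760, read 3.83, 3.54 and 4.58 in Control and 5.57, 5.77 and 5.33 in RORgt-RORa-KO, without overlap. It rose by 1.57 (SE 0.38, adjusted p = 0.00217) there. Mrps6 is almost as near to this peak, at 38576 bases.

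The Slc1a family holds glutamate carriers and the neutral amino acid exchangers ASCT1 (Slc1a4) and ASCT2 (Slc1a5, a main glutamine carrier of dividing cells). Of its 15 peaks, 1 was higher and 1 lower in RORgt-KO, 1 higher and 1 lower in RORgt-Tbet-KO, and 2 were higher and 5 lower in RORgt-RORa-KO. The called shares were 13.3%, 13.3% and 46.7%, against 12.3%, 22.6% and 31.2% of all peaks. No family was compared with other peaks by a test. The Slc1a4 promoter peak, chr11:20332323-20333449, read 9.44, 9.42 and 9.27 (Control), 8.66 and 9.05 (RORgt-KO), 8.96 and 8.82 (RORgt-Tbet-KO) and, for RORgt-RORa-KO, 8.53, 8.43 and 8.34. All 7 knockout libraries were below the 3 Control libraries. It fell by 0.94 (SE 0.15, adjusted p = 2.21e-05, limma) in RORgt-RORa-KO, and that call held with any 1 library left out. The changes of -0.52 (SE 0.17, adjusted p = 0.0441) in RORgt-KO and -0.48 (SE 0.17, 0.0407) in RORgt-Tbet-KO were lost without Control 1, Control 2 or either library of the knockout group (0.0586 to 0.512), and on centring each library (0.1 and 0.0856).

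Slc1a7, which encodes the glutamate carrier EAAT5, had a peak inside the gene at chr4:107988979-107989378. It read 6.60, 6.85 and 5.96 (Control), 6.14 and 6.01 (RORgt-KO), 5.96 and 5.75 (RORgt-Tbet-KO) and, for RORgt-RORa-KO, 5.01, 3.14 and 4.24. The RORgt-RORa-KO libraries were below all others. The log2 fold change there was -2.34 (SE 0.35, adjusted p = 6.6e-06, limma), a 5.07-fold lower level. Slc1a1 encodes the glutamate carrier EAAT3. Its promoter peak, chr19:28834495-28835341, read 5.86, 5.93 and 6.23 in Control and 4.65, 5.07 and 4.65 in RORgt-RORa-KO, without overlap, and fell by 1.22 (SE 0.28, adjusted p = 0.00144). Both of these calls held with any 1 library left out.

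Slc1a5 had 1 called peak, chr7:16794680-16795223 inside the gene. The values were 5.13, 4.90 and 5.38 (Control), 5.49 and 5.90 (RORgt-KO), 6.56 and 6.47 (RORgt-Tbet-KO) and, for RORgt-RORa-KO, 5.77, 4.82 and 5.20. The RORgt-Tbet-KO libraries were above all others. The log2 fold change there was 1.38 (SE 0.33, adjusted p = 0.00278, limma), lost without RORgt-Tbet-KO 1 (0.0582). The same peak changed by 0.56 (SE 0.33, adjusted p = 0.302) in RORgt-KO and 0.13 (SE 0.29, 0.777) in RORgt-RORa-KO. Near Slc1a2, the glial glutamate carrier GLT-1, a peak 838 bases downstream held 1, 10 and 6 reads in the Control libraries and 18 to 24 in RORgt-RORa-KO, where it changed by 2.37 (SE 0.70, adjusted p = 0.0101). That call was lost without Control 1 or RORgt-RORa-KO 1 (0.0509 and 0.0854). A peak inside Slc1a2, chr2:102733130-102733443, changed by 1.79 (SE 0.55, adjusted p = 0.0309) in RORgt-KO and 1.39 (SE 0.49, 0.0324) in RORgt-RORa-KO. Both were lost without Control 1, the first also without either RORgt-KO library and the second without RORgt-RORa-KO 1 or 3 (0.0535 to 0.321).

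The Slc7a light chains pair with the Slc3a heavy chains to exchange large amino acids or cystine. Of the 10 light chain peaks, 1 was higher and 0 lower in RORgt-KO, and 3 were higher and 1 lower in RORgt-Tbet-KO and in RORgt-RORa-KO. Called shares were thus 10%, 40% and 40%, against 12.3%, 22.6% and 31.2% of all peaks. Slc7a11 encodes xCT, which imports cystine for glutathione synthesis. Its peak inside the gene, chr3:50388294-50388792, read 6.99, 7.64 and 6.51 (Control), 6.09 and 6.41 (RORgt-KO), 6.00 and 6.25 (RORgt-Tbet-KO) and, for RORgt-RORa-KO, 5.73, 5.82 and 5.20. All knockout libraries were below Control. It fell by 1.46 (SE 0.26, adjusted p = 8.02e-05, limma) in RORgt-RORa-KO. The change of -0.92 (SE 0.29, adjusted p = 0.0231) in RORgt-Tbet-KO was lost without Control 2 or either RORgt-Tbet-KO library (0.0828 to 0.205), and -0.80 (SE 0.29, 0.0744) in RORgt-KO did not pass.

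Slc7a7 encodes y+LAT1, which exchanges cationic for neutral amino acids. The peak inside it, chr14:54398267-54399446, read 7.96, 7.93 and 7.67 (Control), 8.12 and 8.09 (RORgt-KO), 8.80 and 8.97 (RORgt-Tbet-KO) and, for RORgt-RORa-KO, 8.30, 8.21 and 8.37. It was highest in the RORgt-Tbet-KO libraries and lowest in Control. It rose by 1.03 (SE 0.18, adjusted p = 9.95e-05, limma) in RORgt-Tbet-KO, and this held with any 1 library left out. The 0.44 (SE 0.16, adjusted p = 0.0321) in RORgt-RORa-KO was lost without Control 3, RORgt-RORa-KO 1 or RORgt-RORa-KO 3 (0.0647 to 0.103). Downstream of Slc7a15, a peak at chr12:8519217-8519790 was higher in all 3 groups, with a log2 fold change of 1.06 (SE 0.17, adjusted p = 2.63e-05) in RORgt-RORa-KO. Its changes of 0.59 (SE 0.19, adjusted p = 0.0441) in RORgt-KO and 0.69 (SE 0.19, 0.0111) in RORgt-Tbet-KO were lost without either library of the knockout group (0.0601 to 0.234), the first also without Control 1 or Control 3.

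Slc7a5 (LAT1) and its heavy chain Slc3a2 (CD98) form the main importer of large neutral amino acids in activated lymphocytes. The single Slc7a5 peak, chr8:121907423-121908173, read 4.96, 5.66 and 7.02 in Control and 5.75 to 6.77 over the knockout libraries, within the Control range. It changed by 0.66 (SE 0.36, adjusted p = 0.277, limma), 0.08 (SE 0.36, 0.897) and 0.57 (SE 0.33, 0.191). The 3 Slc3a2 peaks also did not pass, and the one with the smallest p over the groups changed by -0.43 (SE 0.24, adjusted p = 0.273), 0.01 (SE 0.24, 0.981) and -0.52 (SE 0.21, 0.0609).

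Among the cationic amino acid carriers, 7 peaks lay near Slc7a1 and Slc7a14, and 2 of them were lower in each knockout group, both inside Slc7a14. That is 28.6% of the 7 in each group, where 12.3%, 22.6% and 31.2% of all peaks were called. Slc7a14 encodes a lysosomal member of the cationic carrier branch. At chr3:31258660-31259153 the values were 6.58, 6.25 and 6.43 (Control), 4.37 and 3.97 (RORgt-KO), 4.44 and 4.65 (RORgt-Tbet-KO) and, for RORgt-RORa-KO, 4.29, 4.14 and 4.30. The 7 knockout libraries lay together, well below Control. The log2 fold change was -2.25 (SE 0.37, adjusted p = 0.000115, limma), -1.88 (SE 0.37, 0.000484) and -2.18 (SE 0.33, 8.47e-06), and all 3 calls held with any 1 library left out. The neighbouring peak at chr3:31259583-31260208 read 7.43 to 8.06 (Control), 6.79 and 6.78 (RORgt-KO), 6.00 and 6.30 (RORgt-Tbet-KO) and, for RORgt-RORa-KO, 5.75 to 5.86. It changed by -0.88 (SE 0.24, adjusted p = 0.0127), -1.52 (SE 0.24, 3.47e-05) and -1.87 (SE 0.21, 9.78e-08), the first lost without Control 2 or either RORgt-KO library (0.0903 to 0.106). The 5 peaks of Slc7a1 (CAT1, the main arginine carrier of many cells) did not pass, with the smallest-p one at 0.05 (SE 0.46, adjusted p = 0.968), 0.14 (SE 0.46, 0.858) and -1.01 (SE 0.41, 0.0605).

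The Slc38a family of sodium-coupled neutral amino acid carriers had the most peaks, 40, of which 12 lay near Slc38a1. In RORgt-KO 0 were higher and 2 lower, in RORgt-Tbet-KO 4 were higher and 4 lower, and in RORgt-RORa-KO 4 were higher and 5 lower. These are 5%, 20% and 22.5% of the 40, against 12.3%, 22.6% and 31.2% of all peaks. Slc38a6 had 2 lower peaks downstream of the gene. At chr12:73399410-73399827, 37412 bases downstream, the values were 7.13, 7.30 and 7.18 (Control), 6.28 and 6.56 (RORgt-KO), 6.75 and 6.70 (RORgt-Tbet-KO) and, for RORgt-RORa-KO, 5.48, 4.40 and 4.70. The groups did not overlap, and RORgt-RORa-KO was lowest. It fell by 2.34 (SE 0.25, adjusted p = 3.7e-08, limma) in RORgt-RORa-KO, while -0.78 (SE 0.28, 0.0647) in RORgt-KO and -0.48 (SE 0.28, 0.225) in RORgt-Tbet-KO did not pass.

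At the other Slc38a6 peak, chr12:73383693-73384237, Control read 6.88, 6.58 and 5.92 and the 7 knockout libraries 4.65 to 5.21. It was lower in all 3 groups, with changes of -1.48 (SE 0.34, adjusted p = 0.00414, limma), -1.61 (SE 0.34, 0.00115) and -1.57 (SE 0.31, 0.000232), the first lost without RORgt-KO 1 (0.0627). Slc38a1 (SNAT1) and Slc38a2 (SNAT2), glutamine and alanine carriers, each had peaks in both directions. Inside Slc38a1, the peak at chr15:96638145-96638622 changed by 0.81 (SE 0.20, adjusted p = 0.00351) in RORgt-Tbet-KO, lost without RORgt-Tbet-KO 1 (0.112). Its 0.56 (SE 0.18, adjusted p = 0.0158) in RORgt-RORa-KO was lost without RORgt-RORa-KO 3 (0.116). Another peak inside the gene, chr15:96583245-96584036, changed by -0.72 (SE 0.20, adjusted p = 0.00674) in RORgt-RORa-KO, lost without Control 1 (0.0892).

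Upstream of Slc38a2, a weak peak at chr15:96736751-96736978 read 2.37, 2.37 and 3.26 (Control), 3.28 and 4.65 (RORgt-KO), 4.44 and 4.65 (RORgt-Tbet-KO) and, for RORgt-RORa-KO, 4.73, 5.34 and 4.54. All knockout libraries were above Control, RORgt-KO 1 by the least. It rose by 2.20 (SE 0.50, adjusted p = 0.00118, limma) in RORgt-RORa-KO and by 1.88 (SE 0.56, 0.0163) in RORgt-Tbet-KO, where it was lost without either library (0.107 and 0.16). A peak 45066 bases upstream of Slc38a2 changed by -1.49 (SE 0.47, adjusted p = 0.0215) in RORgt-Tbet-KO, lost without Control 1, Control 2 or either RORgt-Tbet-KO library (0.0538 to 0.226). Inside Slc38a10, the peak chr11:120148472-120148728 read 4.28, 3.83 and 4.26 (Control), 4.99 and 3.97 (RORgt-KO), 5.34 and 6.05 (RORgt-Tbet-KO) and, for RORgt-RORa-KO, 5.61, 5.52 and 5.70. The double knockout groups were above Control and RORgt-KO overlapped it. It changed by 1.57 (SE 0.40, adjusted p = 0.0047), lost without RORgt-Tbet-KO 2 (0.168), and by 1.49 (SE 0.35, 0.00174), which held.

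The Slc38a10 promoter peak, chr11:120150424-120151474, read 7.13, 6.46 and 6.98 (Control), 7.08 and 7.25 (RORgt-KO), 7.38 and 7.24 (RORgt-Tbet-KO) and, for RORgt-RORa-KO, 7.43, 7.31 and 7.58. Both double knockout groups were above Control. It changed by 0.58 (SE 0.19, adjusted p = 0.0219, limma) in RORgt-RORa-KO, lost without Control 2, RORgt-RORa-KO 1 or RORgt-RORa-KO 3 (0.0543 to 0.162), and 0.46 (SE 0.22, 0.132) in RORgt-Tbet-KO did not pass.

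Inside Slc38a11, the strong peak at chr2:65341990-65342496 read 8.86, 9.10 and 8.55 (Control), 8.33 and 8.21 (RORgt-KO), 8.36 and 8.09 (RORgt-Tbet-KO) and, for RORgt-RORa-KO, 8.24, 8.46 and 8.29. All 7 knockout libraries were below Control by a small margin. The changes were -0.56 (SE 0.18, adjusted p = 0.0423, limma), -0.61 (SE 0.18, 0.0175) and -0.50 (SE 0.16, 0.0198), and each call was lost without Control 2 (up to 0.285 over the libraries named here). The first was also lost without Control 1 or either RORgt-KO library, the second without either RORgt-Tbet-KO library and the third without Control 1 or RORgt-RORa-KO 1. A peak 18525 bases upstream of the gene, chr2:65382551-65382945, changed by -1.76 (SE 0.60, adjusted p = 0.0338) in RORgt-Tbet-KO and -1.89 (SE 0.54, 0.00757) in RORgt-RORa-KO. The first was lost without Control 1, Control 2 or either RORgt-Tbet-KO library (0.0661 to 0.191) and the second without RORgt-RORa-KO 3 (0.086).

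Slc36a proteins are carriers of amino acids, some of them proton-coupled, with roles at the lysosome. Their 9 peaks gave 0 calls in RORgt-KO, 1 lower in RORgt-Tbet-KO, and 2 higher and 2 lower in RORgt-RORa-KO. This makes 0%, 11.1% and 44.4% of the 9, against 12.3%, 22.6% and 31.2% of all peaks. A peak 27487 bases upstream of Slc36a4, chr9:15681971-15682251, read 6.05, 6.23 and 5.89 (Control), 5.33 and 5.86 (RORgt-KO), 4.50 and 4.50 (RORgt-Tbet-KO) and, for RORgt-RORa-KO, 4.48, 4.63 and 3.75. Both double knockout groups were clear of Control and of RORgt-KO. It fell by 1.56 (SE 0.37, adjusted p = 0.00278, limma) and 1.77 (SE 0.33, 0.000128) in them. Inside Slc36a3, peaks at chr11:55131926-55132195 and chr11:55136697-55137299 rose by 1.42 (SE 0.40, adjusted p = 0.00686) and 0.75 (SE 0.20, 0.00507) in RORgt-RORa-KO. Those 4 calls held with any 1 library left out. Slc36a1 had 2 peaks, and neither passed, with changes of 0.60 (SE 0.45, adjusted p = 0.467), 0.58 (SE 0.45, 0.385) and 0.67 (SE 0.41, 0.22) at the one of smaller p over the groups.

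Slc43a3 encodes a purine nucleobase carrier, unlike the amino acid carriers of its family. A weak peak 5641 bases from the gene, chr2:84964150-84964368, read 3.69, 2.96 and 3.26 (Control), 4.99 and 4.46 (RORgt-KO), 4.96 and 4.83 (RORgt-Tbet-KO) and, for RORgt-RORa-KO, 5.57, 5.52 and 5.68. All knockout libraries were above Control, with RORgt-RORa-KO highest. It rose by 2.28 (SE 0.38, adjusted p = 3.03e-05, limma) in RORgt-RORa-KO. The changes of 1.42 (SE 0.42, adjusted p = 0.0255) in RORgt-KO and 1.59 (SE 0.42, 0.00731) in RORgt-Tbet-KO were lost without either library of the knockout group (0.066 to 0.28), the first also without Control 2. It was 1 of 8 peaks of the Slc43a family and the only one called. The share was 12.5% in each knockout group, against 12.3%, 22.6% and 31.2% of all peaks. Slc43a2 (LAT4) had 2 peaks that did not pass, the one of smaller p at 0.20 (SE 0.24, adjusted p = 0.675), 0.44 (SE 0.24, 0.203) and 0.46 (SE 0.22, 0.111).

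The monocarboxylate carriers of the Slc16a family move lactate, pyruvate, ketone bodies and, in some members, aromatic amino acids. Their 29 peaks gave 2 higher and 3 lower calls in RORgt-KO, 3 higher and 5 lower in RORgt-Tbet-KO, and 4 higher and 8 lower in RORgt-RORa-KO. As shares these were 17.2%, 27.6% and 41.4%, against 12.3%, 22.6% and 31.2% of all peaks. Slc16a7 encodes MCT2, a high-affinity carrier of lactate and pyruvate. Its peak inside the gene at chr10:125361065-125361476 read 4.46, 3.18 and 4.48 (Control), 6.43 and 6.53 (RORgt-KO), 6.14 and 6.57 (RORgt-Tbet-KO) and, for RORgt-RORa-KO, 6.71, 6.95 and 6.66. In reads, that was 17, 7 and 14 in the Control libraries and 59 to 113 in the knockout libraries, with no overlap. It rose by 2.44 (SE 0.33, adjusted p = 1.23e-05, limma), 2.31 (SE 0.33, 1.23e-05) and 2.73 (SE 0.30, 5.39e-08), which is 5.44, 4.97 and 6.65-fold, and all 3 calls held with any 1 library left out.

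Another peak inside Slc16a7, chr10:125290271-125290726, went the other way. It read 6.05, 6.88 and 5.48 (Control), 4.81 and 3.97 (RORgt-KO), 4.44 and 3.45 (RORgt-Tbet-KO) and, for RORgt-RORa-KO, 4.57, 4.63 and 3.16. No knockout library reached the Control range. It changed by -1.75 (SE 0.49, adjusted p = 0.0177, limma), lost without Control 2 or RORgt-KO 2 (0.129 and 0.248), by -2.20 (SE 0.49, 0.00182), lost without RORgt-Tbet-KO 2 (0.0724), and by -2.02 (SE 0.44, 0.000792), which held.

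Slc16a9, which encodes the carnitine and creatine carrier MCT9, had 4 called peaks, all downstream of the gene and all lower. At chr10:70317392-70317747, 31441 bases downstream, the values were 6.93, 7.03 and 6.98 (Control), 4.68 and 4.82 (RORgt-KO), 4.91 and 4.83 (RORgt-Tbet-KO) and, for RORgt-RORa-KO, 4.65, 3.99 and 3.43. In reads that was 79 to 101 in Control and 9 to 34 in the knockout libraries. The Control libraries were close together and far above the rest. It fell by 2.23 (SE 0.36, adjusted p = 0.000103, limma), 2.11 (SE 0.36, 0.00011) and 2.96 (SE 0.32, 5.57e-08), which is 4.69, 4.31 and 7.76-fold, and these calls held with any 1 library left out. A peak at chr10:70318199-70319031, close beside it, fell by 1.32 (SE 0.25, adjusted p = 0.000284) in RORgt-Tbet-KO and 1.30 (SE 0.22, 3.96e-05) in RORgt-RORa-KO. A nearer peak, chr10:70299092-70299422, was lower in all 3 groups and fell by 1.13 (SE 0.22, adjusted p = 0.000247) in RORgt-RORa-KO. Its changes of -0.76 (SE 0.25, adjusted p = 0.0438) in RORgt-KO and -0.81 (SE 0.25, 0.0193) in RORgt-Tbet-KO were lost without Control 2 or either library of the knockout group (0.0631 to 0.287). The first was also lost without Control 1 and on centring (0.0614).

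Slc16a10 encodes TAT1, a carrier of aromatic amino acids. A peak 21085 bases upstream of Slc16a10, chr10:40163355-40164143, read 6.90, 6.50 and 6.32 in Control and 7.51, 7.57 and 7.75 in RORgt-RORa-KO, without overlap, and rose by 1.04 (SE 0.19, adjusted p = 0.000121, limma). A second upstream peak, chr10:40171066-40171760, rose by 1.14 (SE 0.25, adjusted p = 0.00133) in RORgt-Tbet-KO, and was also higher in the other groups. In RORgt-KO it changed by 0.78 (SE 0.25, adjusted p = 0.0365), lost without Control 1, Control 2 or RORgt-KO 1 (0.071 to 0.592), and in RORgt-RORa-KO by 0.71 (SE 0.22, 0.0149), lost without Control 2 or RORgt-RORa-KO 3 (0.0646 and 0.079). Near Slc16a11, a peak changed by 1.04 (SE 0.24, adjusted p = 0.00268) in RORgt-Tbet-KO, lost without RORgt-Tbet-KO 1 (0.0506).

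The lactate carriers Slc16a1 (MCT1) and Slc16a3 (MCT4) had 5 peaks and 1 peak, and none passed. The Slc16a1 peak with the smallest p over the groups, chr3:104670164-104670502, read 2.96, 3.18 and 3.85 in Control and 3.75 to 4.94 over the knockout libraries. It changed by 1.08 (SE 0.51, adjusted p = 0.192, limma), 1.38 (SE 0.51, 0.0523) and 1.15 (SE 0.46, 0.0577). The Slc16a3 promoter peak changed by 1.15 (SE 0.59, adjusted p = 0.23), 0.03 (SE 0.59, 0.982) and 0.95 (SE 0.53, 0.181).

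The Slc6a family carries neurotransmitters, taurine, proline and neutral amino acids with sodium and chloride. Of its 20 peaks, 0 were higher and 1 lower in RORgt-KO, 1 higher and 2 lower in RORgt-Tbet-KO, and 2 higher and 3 lower in RORgt-RORa-KO. Calls thus made up 5%, 15% and 25% of the 20, against 12.3%, 22.6% and 31.2% of all peaks. Slc6a7 encodes a proline carrier of the brain. The peak inside it, chr18:61009852-61010884, read 8.39, 8.46 and 8.01 (Control), 7.65 and 7.84 (RORgt-KO), 8.36 and 8.32 (RORgt-Tbet-KO) and, for RORgt-RORa-KO, 6.86, 6.52 and 6.97. The RORgt-RORa-KO libraries were below all others, and RORgt-Tbet-KO lay within Control. Relative to Control it changed by -1.50 (SE 0.18, adjusted p = 1.89e-07, limma) in RORgt-RORa-KO, -0.54 (SE 0.20, 0.0739) in RORgt-KO and 0.05 (SE 0.20, 0.884) in RORgt-Tbet-KO. The next nearest gene to this peak was Cdx1, 7978 bases away.

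Slc6a6 encodes the taurine carrier. Its peak inside the gene, chr6:91705800-91706642, read 6.62, 6.48 and 6.87 (Control), 7.05 and 7.17 (RORgt-KO), 7.23 and 7.23 (RORgt-Tbet-KO) and, for RORgt-RORa-KO, 7.82, 7.53 and 7.46. All knockout libraries were above Control. It rose by 0.95 (SE 0.19, adjusted p = 0.000231, limma) in RORgt-RORa-KO. Its 0.58 (SE 0.21, adjusted p = 0.045) in RORgt-Tbet-KO was lost without Control 1, Control 2 or either RORgt-Tbet-KO library (0.0935 to 0.224) and on quantile normalization (0.0685).

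Slc6a19 encodes B0AT1, known for neutral amino acid absorption by enterocytes. A peak 2010 bases upstream, chr13:73702790-73703052, read 5.37, 5.54 and 5.89 (Control), 4.37 and 3.65 (RORgt-KO), 4.08 and 3.75 (RORgt-Tbet-KO) and, for RORgt-RORa-KO, 5.13, 5.07 and 3.93. It was below Control in every knockout library. The change was -1.59 (SE 0.44, adjusted p = 0.0164, limma) in RORgt-KO, lost without Control 3 or RORgt-KO 2 (0.051 and 0.221), and -1.69 (SE 0.44, 0.00662) in RORgt-Tbet-KO, lost without RORgt-Tbet-KO 2 (0.0944). In RORgt-RORa-KO, -0.89 (SE 0.40, adjusted p = 0.0887) did not pass. Slc6a13 encodes GAT2, a GABA and taurine carrier. The peak inside it, chr6:121325796-121326764, fell by 0.71 (SE 0.19, adjusted p = 0.00504) in RORgt-RORa-KO.

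The fatty acid carriers of the Slc27a family had 11 peaks, with 1 higher call in RORgt-KO, 1 lower in RORgt-Tbet-KO and 0 in RORgt-RORa-KO. Their called shares were 9.09%, 9.09% and 0%, against 12.3%, 22.6% and 31.2% of all peaks. A peak at an end of Slc27a1 (FATP1), chr8:71587023-71587283, read 4.96, 5.37 and 4.92 (Control), 6.14 and 6.21 (RORgt-KO), 5.30 and 5.65 (RORgt-Tbet-KO) and, for RORgt-RORa-KO, 6.04, 4.52 and 5.54. The RORgt-KO libraries were the highest. It changed by 1.09 (SE 0.36, adjusted p = 0.0478, limma), and the call was lost whichever 1 of the 5 libraries compared was left out (0.0514 to 0.237). A peak inside Slc27a6 changed by -1.58 (SE 0.50, adjusted p = 0.0219) in RORgt-Tbet-KO, lost without Control 1, Control 2 or either RORgt-Tbet-KO library (0.0594 to 0.202).

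Calls were found at every kind of place. Of the 23 promoter peaks, 0 were higher and 1 lower in RORgt-KO, 2 higher and 2 lower in RORgt-Tbet-KO, and 1 higher and 5 lower in RORgt-RORa-KO. Those calls are 4.35%, 17.4% and 26.1% of the 23, against 12.3%, 22.6% and 31.2% of all peaks. Of the 80 peaks inside genes, 16 were higher and 14 lower in RORgt-RORa-KO (37.5%), of the 59 outside 9 and 9 (30.5%), and of the 20 at gene ends 1 and 1 (10%). Whether places differed in their share of calls was not tested. The promoter peaks here are those of genes matched in the promoter table, and peaks at gene ends may include other promoters.

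**Figure D4:**
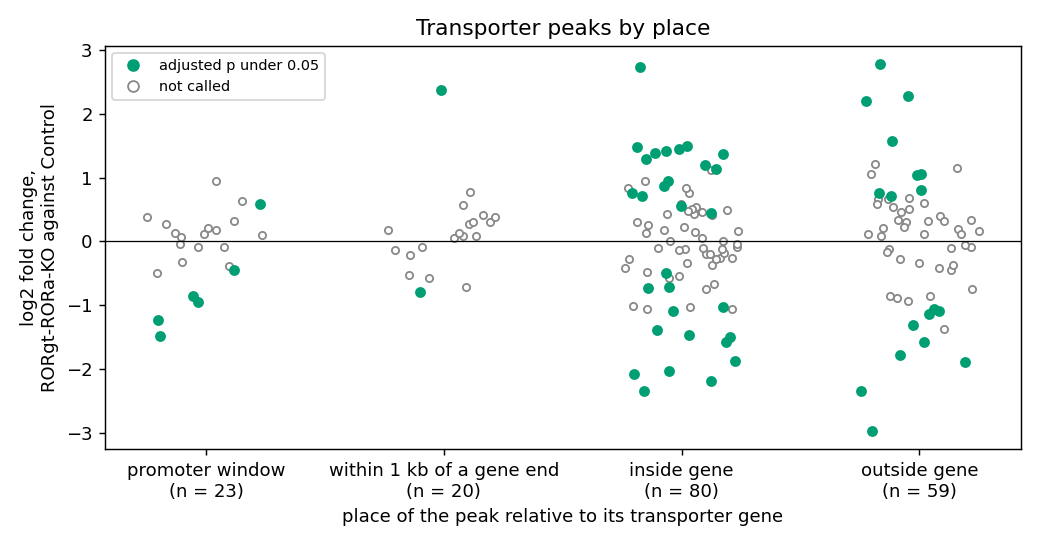
Log2 fold change of RORgt-RORa-KO against Control (vertical axis) of all 182 member peaks by place relative to the nearest gene, 1 point per peak, filled where the adjusted p passed 0.05. Of the 23 promoter points, 1 filled point lies above 0 and 5 below it. Genes without a match in the promoter table have no promoter points.

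Between the knockout groups few member peaks differed. Against RORgt-KO, RORgt-Tbet-KO had 1 higher and 2 lower peaks, 1.65% against 1.14% of all peaks, and RORgt-RORa-KO had 2 higher and 5 lower, 3.85% against 1.47% of all peaks. Against RORgt-Tbet-KO, RORgt-RORa-KO had 3 higher and 12 lower, 8.24% against 7.54% of all peaks (3.82% higher and 3.72% lower). Libraries did not overlap for 98, 65 and 68 members in these 3 comparisons (53.8%, 35.7% and 37.4%), against 53.7%, 28.3% and 37.6% of all peaks. These counts rested on single libraries in groups of 2. The 3 calls of the first became 0 without RORgt-KO 1 or RORgt-Tbet-KO 2 and 1 without RORgt-KO 2 or RORgt-Tbet-KO 1. The 7 of the second became 0 without RORgt-KO 2, 3 without RORgt-KO 1 and 4 without RORgt-RORa-KO 3. The 15 of the third became 9 without RORgt-RORa-KO 1 or RORgt-RORa-KO 2, 5 without RORgt-Tbet-KO 1 and 4 without RORgt-Tbet-KO 2. With centred libraries, the first comparison had 0 higher and 2 lower peaks.

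The Slc5a11 peak at chr7:123217675-123218780 differed most clearly between knockout groups. It was higher in RORgt-RORa-KO than in RORgt-Tbet-KO by a log2 difference of 1.99 (SE 0.24, adjusted p = 1.63e-06, limma), a 3.96-fold difference that held with any 1 library left out. It was lower in RORgt-Tbet-KO than in RORgt-KO by a log2 change of -1.49 (SE 0.26, adjusted p = 0.00153), lost without RORgt-KO 1 or RORgt-Tbet-KO 2 (0.0549 and 0.079). The neighbouring Slc5a11 peak at chr7:123220136-123220448 read 6.39, 7.10 and 6.09 in RORgt-RORa-KO against 5.20 and 4.65 in RORgt-Tbet-KO. It differed by 1.60 (SE 0.33, adjusted p = 0.00158), lost without RORgt-Tbet-KO 2 (0.0845). The third Slc5a11 peak, chr7:123240225-123240733, read 5.61, 5.46 and 4.89 in RORgt-RORa-KO against 3.99 and 2.65 in RORgt-KO. It differed by 2.00 (SE 0.46, adjusted p = 0.0192), lost without RORgt-KO 2 or RORgt-RORa-KO 1 (0.0956 and 0.644).

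The other calls that held with any 1 library left out were lower in RORgt-RORa-KO than in RORgt-Tbet-KO. The Slc6a7 peak differed by -1.56 (SE 0.20, adjusted p = 3.96e-06, limma) and the Slc38a6 peak at chr12:73399410-73399827 by -1.86 (SE 0.28, 4.25e-05). Both were also lower in RORgt-RORa-KO than in RORgt-KO, with log2 changes of -0.96 (SE 0.20, adjusted p = 0.00757) and -1.56 (SE 0.28, 0.00175). The first of these was lost without either RORgt-KO library (0.057 and 0.298) and the second without RORgt-KO 2 (0.129). The Slc1a7 peak was lower in RORgt-RORa-KO than in RORgt-KO, with a log2 change of -1.95 (SE 0.39, adjusted p = 0.00575), lost without either RORgt-KO library (0.101 and 0.125), and than in RORgt-Tbet-KO, with -1.72 (SE 0.39, 0.0045), lost without RORgt-Tbet-KO 1 (0.0901).

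Between RORgt-Tbet-KO and RORgt-KO, the Slc7a7 peak was higher in the former by 0.77 (SE 0.19, adjusted p = 0.0383, limma). The Slc2a13 upstream peak was lower by a log2 change of -1.23 (SE 0.27, adjusted p = 0.0161). Each call was lost whichever 1 of the 4 libraries was left out (0.0741 to 0.47). The Slc1a5 peak was lower in RORgt-RORa-KO than in RORgt-Tbet-KO by a log2 change of -1.25 (SE 0.33, adjusted p = 0.0143), lost without RORgt-RORa-KO 2 or either RORgt-Tbet-KO library (0.055 to 0.196). A peak inside Slc38a10, chr11:120139096-120139769, read 7.30, 6.97 and 7.43 in RORgt-RORa-KO against 8.07 and 8.26 in RORgt-Tbet-KO, a change of -0.93 (SE 0.21, adjusted p = 0.00383), lost without RORgt-Tbet-KO 2 (0.123). The weak peak downstream of Slc1a2 differed by 2.48 (SE 0.78, adjusted p = 0.0482) between these groups, lost whichever 1 of the 5 libraries was left out (0.0553 to 0.387) and on centring (0.0502).

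**Figure D5:**
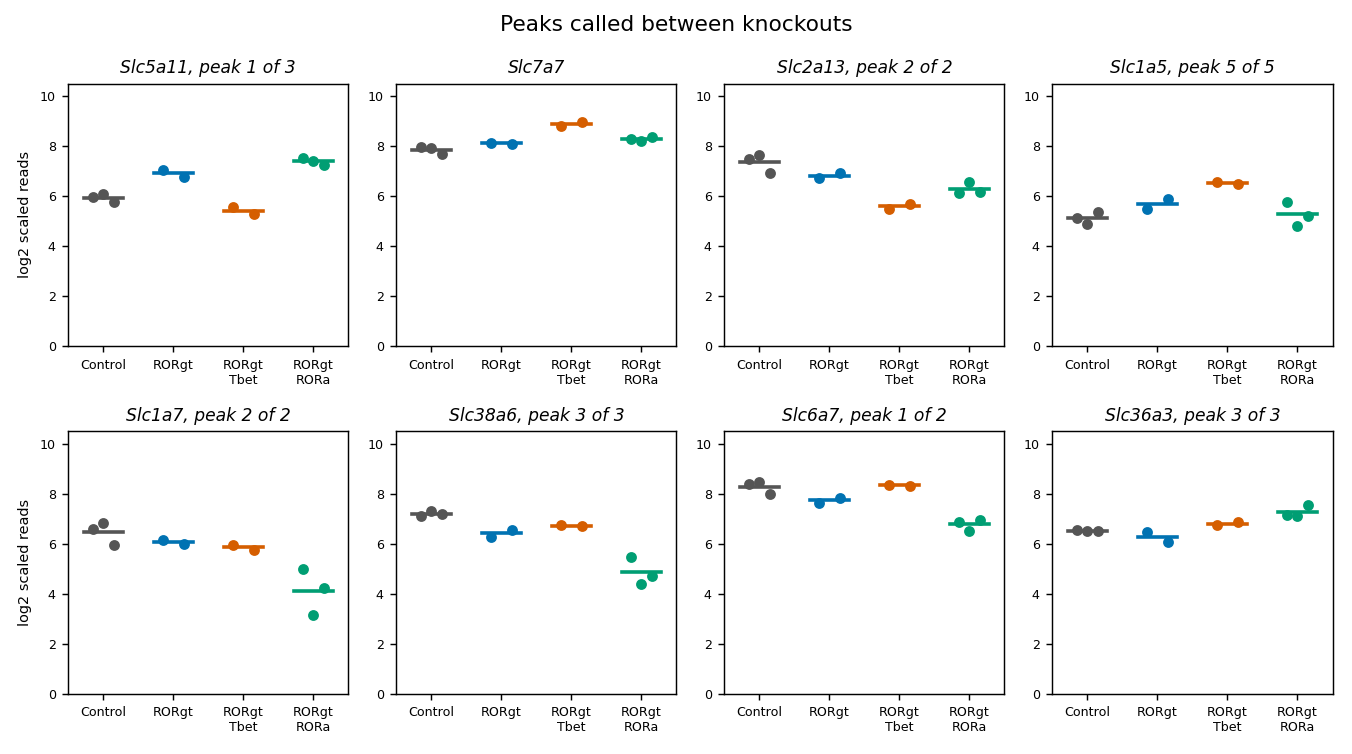
Deposited log2 values (log2 of scaled reads, vertical axis) of 8 peaks called between knockout groups, with 1 point per library and a line at each group mean. At the Slc5a11 peak the RORgt-RORa-KO points lie at 7.26 to 7.53 and the RORgt-Tbet-KO points at 5.27 and 5.56.

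Genes that sense nutrients or use what the carriers bring in were looked at by the same nearest-gene rule. Of 82 listed genes, 74 had 251 peaks. In RORgt-KO 17 of these were higher and 25 lower (16.7% against 12.3% of all peaks), in RORgt-Tbet-KO 34 higher and 32 lower (26.3% against 22.6%), and in RORgt-RORa-KO 44 higher and 53 lower (38.6% against 31.2%). Of 104 peaks near sensing and control genes, 25 were higher and 17 lower in RORgt-RORa-KO, where 15.1% of all peaks were higher and 16.1% lower. In the same contrast 8 of 53 glycolysis peaks were higher and 8 lower, of 46 amino acid use peaks 6 and 15, of 32 lipid peaks 3 and 11, and of 16 peaks near transporter partners 2 and 2. No test compared these lists with other peaks.

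The peak with the smallest p over the 4 groups in each of these lists was named after its values were seen. Near Txnip, whose protein restrains glucose uptake by driving GLUT1 inward, a peak read 4.28, 4.37 and 4.92 in Control and 6.02 to 6.99 over the knockout libraries. It rose by 1.68 (SE 0.30, adjusted p = 0.000281, limma), 1.93 (SE 0.30, 2.89e-05) and 2.35 (SE 0.27, 1.01e-07). Near Odc1, the first enzyme of polyamine synthesis from ornithine, a peak read 8.99 to 9.22 in Control and 6.68 to 6.96 in RORgt-RORa-KO. It fell by 0.76 (SE 0.18, adjusted p = 0.00435), 0.58 (SE 0.18, 0.0177) and 2.33 (SE 0.16, 1.61e-11). Near Lpl, the lipoprotein lipase, a peak fell by 1.23 (SE 0.19, adjusted p = 6.45e-05), 0.76 (SE 0.19, 0.005) and 2.73 (SE 0.17, 4.94e-12).

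Near Pfkfb3, an activator of glycolysis, a peak fell by 0.70 (SE 0.21, adjusted p = 0.0285, limma) in RORgt-KO and 1.84 (SE 0.19, 2.79e-08) in RORgt-RORa-KO, with -0.39 (SE 0.21, 0.2) in RORgt-Tbet-KO. Emb encodes embigin, a chaperone of monocarboxylate carriers. A peak near it rose by 0.73 (SE 0.21, adjusted p = 0.0194) in RORgt-KO and 0.78 (SE 0.19, 0.00176) in RORgt-RORa-KO, with -0.07 (SE 0.21, 0.84) in RORgt-Tbet-KO.

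Several members are known from gut epithelium, so markers of other cells were set beside them. In reads per 1000 reads in peaks, the epithelial marker list summed to 0.198 to 0.234 in Control and 0.276 to 0.300 in the knockout libraries. Of its 14 genes 7 had peaks, and Vil1, Krt18, Krt19, Krt20, Alpi, Apoa1 and Apoa4 had none. Its members did not move one way: of its 13 peaks, 3 were called higher (near Cdh1, Cdx2 and Epcam) and 2 lower in RORgt-RORa-KO. The lower ones were Krt8, at a mean of 7.20 in Control and 5.20 in RORgt-RORa-KO, and Muc2, at 5.35 and 4.00. Krt8 was also called lower in RORgt-KO (6.35). The 17 peaks near 9 enterocyte-type carriers, Slc5a1 among them, summed to 0.243 to 0.272 in Control and 0.290 to 0.386 in the knockouts. The median log2 level of these peaks went the other way in RORgt-RORa-KO, with 5.07 to 5.39 against 5.54 to 5.69 in Control. Their median log2 fold change against Control was positive, at 0.26 in RORgt-KO, 0.41 in RORgt-Tbet-KO and 0.13 in RORgt-RORa-KO. The direction thus depended on the measure. Of the 17, the RORgt-RORa-KO contrast called 4 with a gain and 4 with a loss. The T cell list (Cd3g, Cd8a and Cd8b1 without a peak) summed to 0.0997 to 0.109 and 0.111 to 0.197, and the B and plasma cell list (without a peak at Ms4a1, Cd79a, Cd79b or Jchain) to 0.242 to 0.280 and 0.136 to 0.200. Of the 9 T cell peaks, 5 were higher and 2 lower in RORgt-RORa-KO, the lower ones near Cd28 and Cd5. The myeloid list summed to 0.0594 to 0.0779 in Control and 0.0751 to 0.0953 in the knockouts, and the stromal list to 0.219 to 0.254 and 0.237 to 0.321. The epithelial, T cell and B cell sums did not overlap between Control and knockout libraries, and their part in the members' changes was not tested.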

How the data were processed

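The deposited table held log2 values for 36262 peaks in 10 libraries, and the authors' scaling is 1 factor per library, as read from the values: in each library 100% of the non-empty peaks were whole multiples of 1 step within 0.01, and empty peaks sat at 0.9 of a step. The sources used here do not name the origin of the factor. Per the submitters' processing notes, the tools were Trim Galore 0.62, Bowtie2 2.3.5.1, SAMtools and MACS2, with build GRCm38. The labels' protocols name collagenase digestion, magnetic enrichment, flow sorting, Tn5 with digitonin and a NextSeq500. Peaks on the Y chromosome (11) were dropped, leaving 36251. Peak coordinates are as the file gives them. Each peak took the nearest protein-coding RefSeq gene body within 50 kb, which named 32579 peaks. The 5 family symbols with letters after the number (1 peak) were not counted.

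Values were fitted as deposited with limma 3.58.1 in R 4.3.3, using 1 model over the 4 groups, its variance prior following the mean level (residual degrees of freedom 6, prior 22.5). P-values were adjusted by Benjamini-Hochberg over all peaks, and a peak was called at 0.05. The median standard error was 0.271 to 0.332. Figures were drawn with matplotlib 3.10.9 in Python 3.11.15.

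The members, gene lists and the rule for named peaks were chosen with earlier results of these data known. The rule named, among called peaks without overlap of libraries, the 8 largest changes each way against Control and the 5 each way between knockouts (1 per gene), the peaks of 16 fixed genes whatever their change, and the highest and lowest peaks in Control. Called peaks beyond it are named after their values were seen. Values of some genes are not reported here, though counts over the members include their peaks. Alternatives changed the scaling, pseudocount, filter, trend, samples in the fit, replicate block and window, used voom on recovered reads, or left out 1 library.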

Additional observations from a re-analysis of the deposited data

How the results depend on the processing

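Without a mean-variance trend the number of member peaks called fell to 10 for RORgt-KO against Control, 1 for RORgt-Tbet-KO against RORgt-KO, 0 for RORgt-RORa-KO against RORgt-KO and 6 for RORgt-RORa-KO against RORgt-Tbet-KO (limma; 36 member peaks had an unadjusted p under 0.05 for the third in the fit with the trend, and voom called 6). A fit of RORgt-Tbet-KO and RORgt-KO alone called 19. With peaks taken only within 5 kb, RORgt-Tbet-KO against Control had 23 calls, since fewer peaks were counted. The cause of the other shifts was not tested. With 1 library left out, calls against Control ran from 6 to 22 for RORgt-KO, 15 to 44 for RORgt-Tbet-KO and 47 to 59 for RORgt-RORa-KO. Between knockouts they ran from 0 to 1 for RORgt-Tbet-KO against RORgt-KO, 0 to 8 for RORgt-RORa-KO against RORgt-KO and 4 to 19 for RORgt-RORa-KO against RORgt-Tbet-KO, and for the F test over the 4 groups from 44 to 61 around 57. A group of 2 then kept a lone library, assumed to vary like the other groups.

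Same-numbered libraries did not deviate together (r of -0.12 to 0.14 between their deviations), so replicate numbers were not taken as pairs. A replicate block gave 27, 45 and 59 calls against Control, 3, 6 and 16 between knockouts in the order above, and 65 for the F test. Of 140 calls of a peak in a comparison, 56 held in every left-out library and 83 under every other alternative. No value changed its sign in a call. Under each scaling the median log2 fold change over all peaks was at most 0.08 in size. Depth limits the weakest peaks, which held few reads in Control.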
